A study of Mus musculus with 12 samples.

Results

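A set of 10 transcription factors that set the fate of blood stem cells was followed through mouse haematopoietic stem cells (HSCs) at rest, after cytokine stimulation and in old age. They were chosen by symbol, as Gata1, Gata2, Klf1, Tal1, Lmo2, Runx1, Myb, Spi1, Cebpa and Irf8, and all 10 were found among the 35976 gene symbols of the count files. The cells were sorted as lineage-negative, c-Kit+ and Sca-1+, a gate that by textbook knowledge also holds multipotent progenitors. They came from wild-type (WT) mice and from mice labelled as knockout (KO) for Cd38, which encodes an NAD-consuming membrane enzyme. Cells from 2-month-old (young) mice were used fresh or after 24 h of cytokine stimulation ex vivo, and cells from 24-month-old (old) mice were used fresh. Each of the 6 resulting groups had 2 libraries, numbered 1 and 2 for WT and 3 and 4 for KO. The Cd38 deletion was the only allele named, and the labels state neither the strain nor the cytokines nor the number of animals behind a library. Nothing in the labels says that the 2 libraries of a group came from separate animals, so p-values measure only the spread between these libraries, which may be technical.

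The factors act as a network. GATA2, TAL1, LMO2 and RUNX1 bind together at enhancers of stem and progenitor genes, with LMO2 as the bridging protein that does not itself bind DNA. GATA1 replaces GATA2 at shared sites when cells enter the erythroid and megakaryocytic lineages, and KLF1 drives globin and other red cell genes. PU.1, the product of Spi1, opposes GATA1 and works with C/EBPα in granulocytes and monocytes and with IRF8 in monocytes and dendritic cells, while MYB sustains dividing progenitors of most lineages.

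Library totals ranged from 1600155 to 5164720 counts, and levels are given as CPM, counts per 1000000 counts of a library's TMM-scaled size. The 2 libraries of a stimulated group were much closer to each other than those of a fresh group: log2 levels correlated across genes with r = 0.959 in WT and 0.953 in KO after stimulation, against 0.718 to 0.747 in the fresh groups, and genes are not independent replicates. In fresh groups, 37 to 126 genes stood at 0 in one library and above 50 CPM in the other, against 0 such genes in stimulated groups. Kit ranged from 191 to 423 CPM and Ly6a, which encodes Sca-1, from 39.3 to 177 CPM, so both sorting markers were present in all 12 libraries. Cd38 itself ranged from 2.32 to 62.8 CPM in KO libraries and from 0.998 to 74.4 CPM in WT libraries. In young fresh cells both KO libraries (62.8 and 31.9 CPM) lay above both WT libraries (17.6 and 24.6 CPM). In old fresh cells both KO libraries (13.2 and 19.9 CPM) lay below both WT libraries (74.4 and 41.4 CPM). The stimulated groups overlapped, at 3.59 and 2.32 CPM in KO and 0.998 and 8.58 CPM in WT. A 3′ tag can lie outside a deleted part, which was not tested, and these levels leave the genotype unchecked. Xist was at 0 in young fresh WT replicate 1 and between 198 and 745 CPM in the other 11 libraries, and Y-linked genes summed to 200 CPM in that library and to at most 6.62 CPM in the others. Gata1 is X-linked.

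In mm10, Gata1 lies on chromosome X, 7959260 to 7976663, and Gata2 on chromosome 6, 88193891 to 88207032. Lmo2 spans chromosome 2, 103957903 to 103981878, Klf1 spans chromosome 8, 84901982 to 84905291, and Irf8 spans chromosome 8, 120736358 to 120756694. Tal1 lies on chromosome 4, 115056426 to 115071755, Runx1 on chromosome 16, 92601466 to 92826074, and Myb on chromosome 10, 21124930 to 21160984. Spi1 lies on chromosome 2, 91082374 to 91115759, and Cebpa on chromosome 7, 35119293 to 35121928. All 10 are annotated as protein-coding in RefSeq. For 5 of them no other gene annotated in GENCODE overlaps. The only overlapping gene listed in the count files, 4931422A03Rik on the strand opposite Lmo2, had 0 counts in every library. RefSeq promoter windows (GRCm38.p6, 250 bases before to 50 bases after the start) were present for 8 of the 10 genes, in 12 windows. They were searched on both strands for GATA motifs (AGATAA or its variant AGATAG, and TGATAA or its variant TGATAG, present in 29.8% of all 32851 windows), for the STAT motif TTCNNNGAA (8.3%) and for the ETS motif GGAAGT (23.8%). The Klf1 window (chr8:84901732-84902031, plus strand) and the upstream of the Irf8 windows (chr8:120736108-120736407, plus strand) are shown, and each was picked because it holds a match. Klf1 differed without overlap on stimulation and with age, as 19.8% and 8.43% of all genes tested did, and it passed edgeR's test in neither. Irf8 differed between genotypes after stimulation. Capitals mark the matches, a GATA motif in Klf1 read on the opposite strand and 2 STAT motifs in Irf8.
Klf1: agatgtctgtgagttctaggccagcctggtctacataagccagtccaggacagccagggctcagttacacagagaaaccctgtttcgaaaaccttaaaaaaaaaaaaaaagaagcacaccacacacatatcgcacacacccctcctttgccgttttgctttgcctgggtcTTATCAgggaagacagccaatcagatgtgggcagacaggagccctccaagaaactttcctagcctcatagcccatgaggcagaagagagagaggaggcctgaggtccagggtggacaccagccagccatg
Irf8: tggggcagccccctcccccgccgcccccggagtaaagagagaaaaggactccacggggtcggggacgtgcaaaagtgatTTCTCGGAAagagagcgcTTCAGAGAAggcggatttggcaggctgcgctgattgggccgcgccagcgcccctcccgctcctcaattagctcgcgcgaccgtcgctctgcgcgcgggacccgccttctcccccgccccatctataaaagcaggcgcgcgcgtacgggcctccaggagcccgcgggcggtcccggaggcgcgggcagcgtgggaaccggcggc
The Klf1 match lies at bases -80 to -75 from the start, and the Irf8 matches lie at -171 to -163 and -153 to -145. The other GATA match was in Tal1, at -205 to -200, and no window held the ETS letters. Of the 12 windows, 2 held a GATA motif, beside 29.8% of all windows, and 1 held a STAT motif, beside 8.3%. The set was therefore not richer in these motifs than promoters at large. A match describes the letters of a window and not a bound site.

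**Figure D1:**
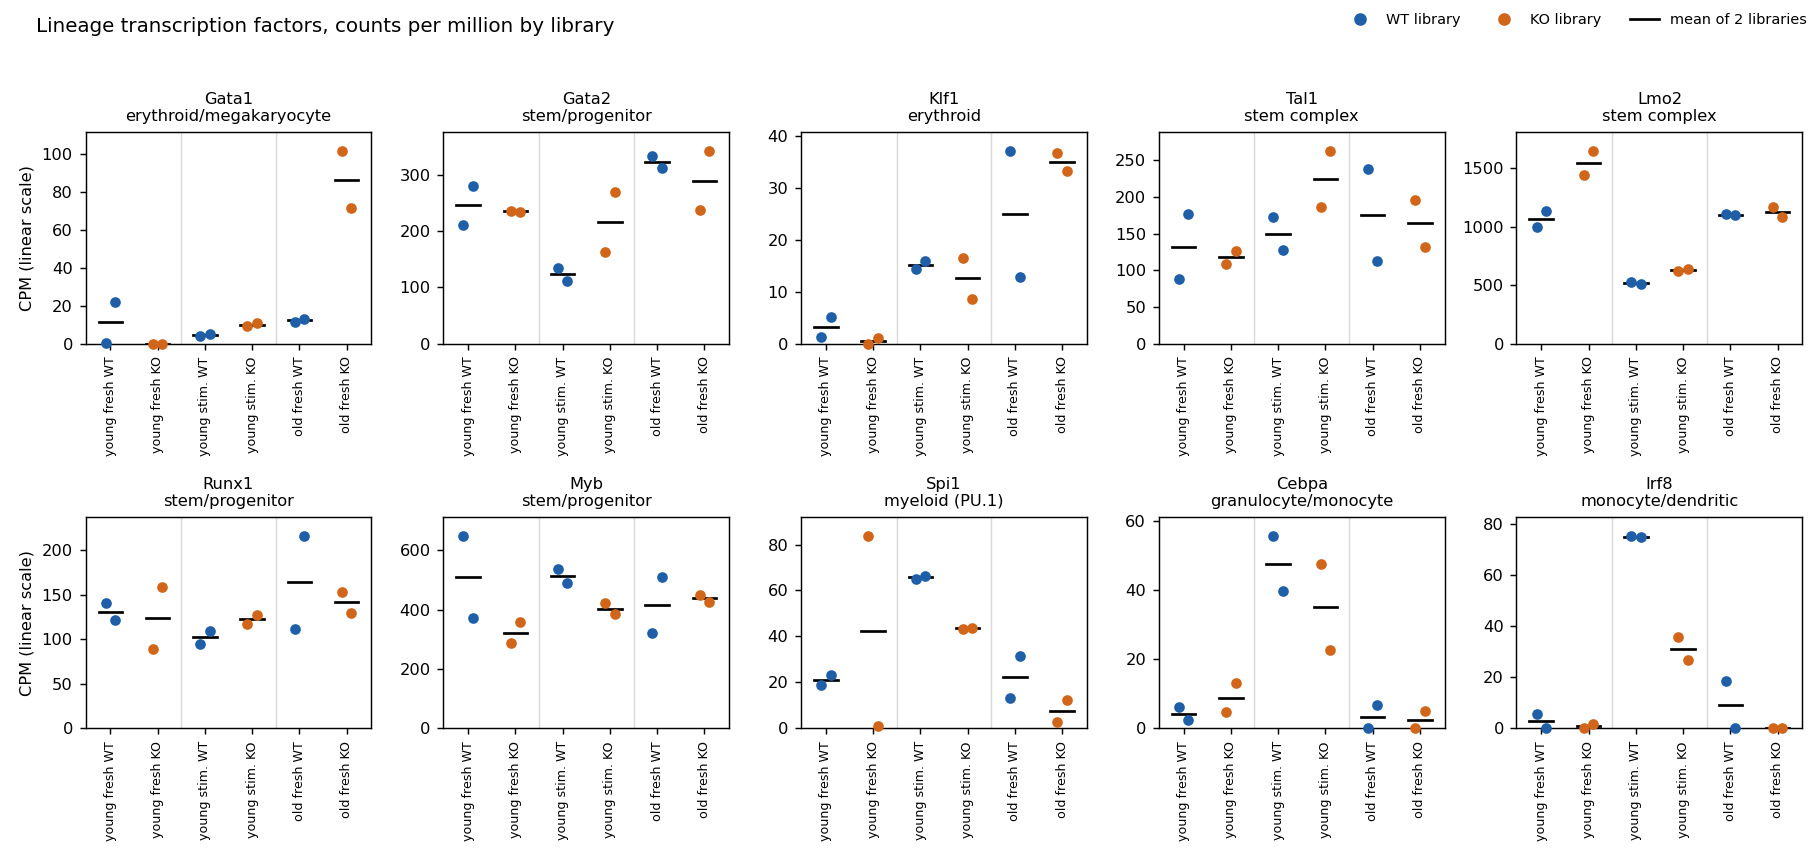
CPM (linear axis, scaled separately for each gene) of the 10 factors in 12 libraries, with 1 point per library in replicate order, blue for WT and orange for KO, and a bar at the mean of 2 libraries. Lmo2 lies between 507 and 642 CPM in the 4 stimulated libraries and at 995 CPM or more in the 8 fresh ones, and Gata1 reaches 71.6 and 101 CPM in the old KO libraries.

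The comparison of stimulated with young fresh cells asks how the network differs after 24 h of cytokine stimulation ex vivo. No group was cultured without cytokines, so cytokines and culture cannot be told apart. Lmo2 fell in both genotypes and was the only factor of the 10 to pass the test. It stood at 995 and 1135 CPM in young fresh WT, at 1443 and 1644 CPM in young fresh KO, at 531 and 507 CPM in stimulated WT and at 619 and 642 CPM in stimulated KO. All 4 stimulated libraries lay below all 4 young fresh ones. The mean log2 change was -1.16 ± 0.13 (SE, n = 4 libraries a state), with adjusted p = 0.000141 by edgeR's quasi-likelihood test with Benjamini-Hochberg adjustment. It passed in each genotype, at -1.04 ± 0.18 in WT (adjusted p = 0.0133, edgeR) and -1.29 ± 0.18 in KO (adjusted p = 0.00469, edgeR), and under all 19 alternative settings, where it ranged from -1.23 to -1.02. Over all 11548 genes tested, 325 (2.81%) passed, 151 higher and 174 lower, and the median log2 change was 0.27. With scaling by library totals alone that median was 0.41, and 64.4% of called genes were higher in place of 46.5%.

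None of the other stem cell factors passed. Gata2 stood at 211 and 280 CPM in young fresh WT, at 236 and 234 CPM in young fresh KO, at 135 and 111 CPM in stimulated WT and at 163 and 269 CPM in stimulated KO. Stimulated KO replicate 4 lay within the fresh range, and the other 3 stimulated libraries lay below it. The log2 change was -0.56 ± 0.22 (edgeR adjusted p = 0.212). Tal1, which encodes the helix-loop-helix partner of LMO2, ranged from 87.8 to 177 CPM in young fresh and from 128 to 262 CPM in stimulated libraries (0.55 ± 0.31, edgeR adjusted p = 0.378). Runx1 ranged from 88.8 to 158 CPM and from 95.2 to 127 CPM (-0.19 ± 0.29), and Myb from 288 to 647 CPM and from 384 to 536 CPM (0.16 ± 0.21), so that for both genes the stimulated range lay inside the fresh one.

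The myeloid factors Irf8 and Cebpa and the erythroid factor Klf1 were higher in all 4 stimulated libraries than in any young fresh one, and none of the 3 passed edgeR's test. Irf8 stood at 5.64 and 0 CPM in young fresh WT, at 0 and 1.57 CPM in young fresh KO, at 75.2 and 74.6 CPM in stimulated WT and at 35.6 and 26.8 CPM in stimulated KO. The fresh values rest on 9 counts in WT and 3 in KO, and the KO ratio was 40.8 (exact conditional 95% interval 13.8 to 199, counting error only). The log2 change of Irf8 was 4.99 ± 1.59 with an edgeR adjusted p of 0.135, and it passed under 5 of 19 alternatives (range of adjusted p 0.00520 to 0.272). Its value rests on few fresh counts: it was 8.07 without young fresh WT replicate 1 and 7.17 without young fresh KO replicate 4. Klf1 stood at 1.25 and 5.14 CPM in young fresh WT, at 0 and 1.05 CPM in young fresh KO, at 14.3 and 15.8 CPM in stimulated WT and at 16.6 and 8.61 CPM in stimulated KO. Its log2 change was 3.35 ± 1.18 (edgeR adjusted p = 0.169, and 0.0170 to 0.563 over the alternatives, of which DESeq2 called it), and it was 5.26 without young fresh KO replicate 4 and 4.03 without young fresh WT replicate 2. Cebpa stood at 6.27 and 2.28 CPM in young fresh WT, at 4.59 and 13.1 CPM in young fresh KO, at 55.6 and 39.6 CPM in stimulated WT and at 47.5 and 22.5 CPM in stimulated KO. Its log2 change was 2.72 ± 1.38 (edgeR adjusted p = 0.326), and it passed under none of the 19 alternatives. In all, 4 of the 10 factors had no overlap between states, 3 higher and 1 lower, against 19.8% of all genes tested. More genes had any count in stimulated libraries (13163 to 13450) than in young fresh ones (9116 to 9993). Old fresh libraries, with the largest totals, had 9548 to 10231. The part of this difference in genes with few fresh counts was not tested.

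Spi1 and Gata1 overlapped between the states. Spi1 was at 43.3 to 66.4 CPM in the 4 stimulated libraries and ranged from 1.05 to 83.7 CPM in the fresh ones, both extremes coming from the 2 KO libraries (log2 change 0.84 ± 0.90, edgeR adjusted p = 0.677). Without young fresh KO replicate 3 the change was 3.49 (edgeR adjusted p = 0.0632). Gata1 stood at 0.627 and 22.3 CPM in young fresh WT, at 0 in both young fresh KO libraries, at 4.33 and 4.95 CPM in stimulated WT and at 9.38 and 10.9 CPM in stimulated KO. In KO cells stimulated Gata1 was at least 13.0-fold higher, with 67 counts against a floor of 3 counts over the group. That bound covers counting error only, and the change within KO did not pass (edgeR adjusted p = 0.174). In WT its log2 change was -1.30 ± 1.40, and the test over both genotypes gave an edgeR adjusted p of 0.228.

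**Figure D2:**
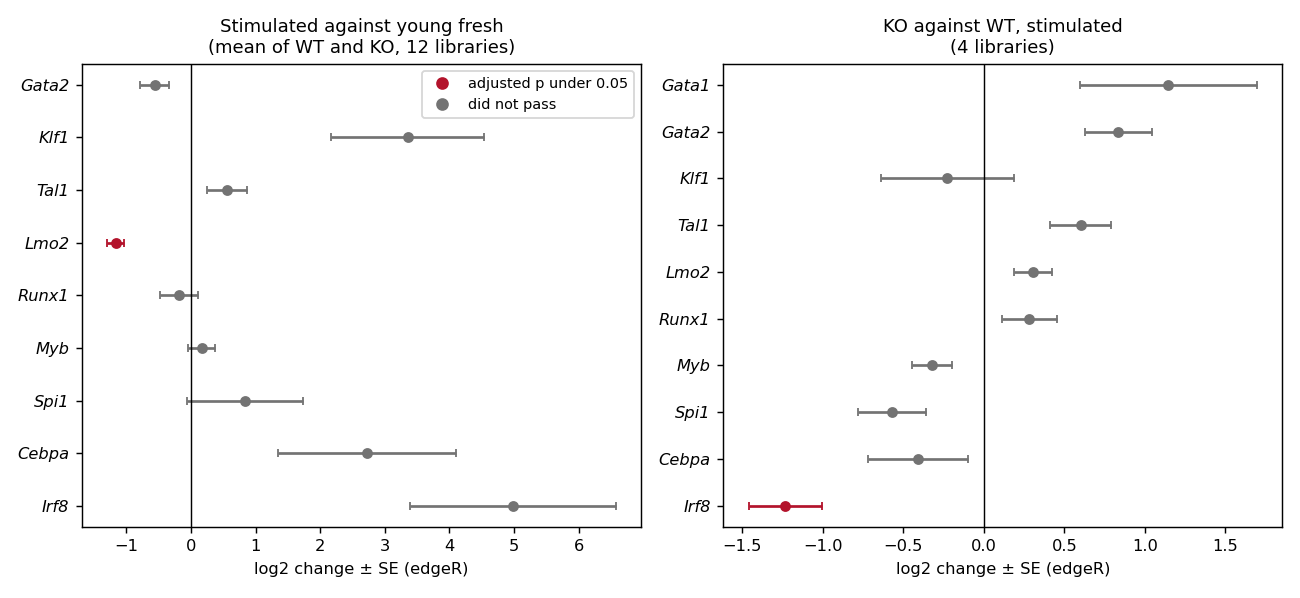
Log2 change with a standard error derived from edgeR's F value, for stimulated against young fresh cells (left) and for KO against WT after stimulation (right). Factors that passed an adjusted p of 0.05 are in red. Lmo2 passed on the left at -1.16 and Irf8 on the right at -1.23; Gata1 is left out on the left because both young fresh KO libraries had 0 counts.

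Of 19 genes tested in the list downstream of PU.1, C/EBPα and IRF8, 5 rose with stimulation and 0 fell, 17 had a positive log2 change, and the median was 3.18 (2.93 with genes at 0 in a group set to their bound) against 0.27 over all genes. Of the 5, Ctsg, Prtn3, Mpo and Elane encode granule proteins of early granulocytes and monocytes, while Lyz2, another granule gene of the list, had a log2 change of -0.83 ± 0.63 and did not pass. Ctsg averaged 24.6 ± 19.4 CPM in young fresh WT, 3.88 ± 0.44 in young fresh KO, 557 ± 10.1 in stimulated WT and 371 ± 157 in stimulated KO (SD, n = 2 each). Its log2 change was 5.54 ± 0.42 (edgeR adjusted p = 6.31e-06). Prtn3 rose by 3.18 ± 0.35 (edgeR adjusted p = 0.000141) and Mpo by 4.09 ± 0.66 (edgeR adjusted p = 0.00303) on the log2 scale. Fcgr3, a receptor for antibody, was at 0 in both young fresh KO libraries and at 52.3 to 109 CPM in the stimulated ones (edgeR adjusted p = 0.00853). The fifth, Elane, rose by 4.42 ± 0.85 (edgeR adjusted p = 0.0101) and is named because it completes the count; its call was lost without any one of the 4 young fresh libraries (adjusted p 0.0522 to 0.0968, edgeR). Markers of other cells differed between the states as well: summed mast cell and basophil markers were at 0 to 14.7 CPM in young fresh and 41.7 to 93.2 CPM in stimulated libraries, with at most 1 of 6 at 0 after stimulation. Late neutrophil markers summed to between 4987 and 9530 CPM in young fresh and between 748 and 1452 CPM in stimulated libraries, and macrophage markers ranged from 45.5 to 133 CPM and from 68.6 to 132 CPM. The part of these cells in the levels of Irf8, Cebpa, Klf1 and the target genes was not tested, and in bulk RNA fewer cells of a type and less RNA per cell cannot be told apart.

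Of 17 tested genes downstream of GATA1 and KLF1, 1 fell and 0 rose, with a median of 0.70 (0.59 with bounds). It was Car2, a carbonic anhydrase of red cells and their precursors, at -0.98 ± 0.13 (edgeR adjusted p = 0.000875), from 3537 to 5215 CPM in young fresh to 1605 to 3113 CPM in stimulated libraries. None of 26 partners and cofactors of the factors passed (6 at an unadjusted p under 0.05, 2 called by DESeq2 and 0 by limma voom), and none of 18 paralogues did (7, 2 and 4), where 2046 of all 11548 genes had an unadjusted p under 0.05. The median of the partners was 0.13 and that of the paralogues 0.27.

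The comparison of KO with WT after stimulation asks whether levels differ between the genotypes in stimulated cells. It does not compare how far each genotype changed on stimulation, which is the interaction of genotype and stimulation. Irf8, which drives monocyte and dendritic cell development, was lower in KO and was the only factor of the 10 to pass. Its 2 WT libraries averaged 74.9 ± 0.41 CPM and its 2 KO libraries 31.2 ± 6.20 CPM (SD, n = 2), from 452 and 210 counts, and the groups did not overlap. The log2 difference, KO minus WT, was -1.23 ± 0.23 with adjusted p = 0.0162 (edgeR on the 4 stimulated libraries). The call was lost without KO replicate 3 (-1.45, edgeR adjusted p = 0.0734) and without KO replicate 4 (-1.06, adjusted p = 0.172). It was also lost when the spread was taken over all 12 libraries (-1.26, adjusted p = 1). The background was 129 of 10494 genes (1.23%), 80 higher and 49 lower in KO. From young fresh to stimulated cells, Irf8 changed by 4.72 ± 2.19 in WT and 5.25 ± 2.31 in KO (log2, 12 libraries). Neither change passed, and nor did the interaction for Irf8, at 0.53 ± 2.63. The lower level in KO does not by itself measure a weaker response. With 9 fresh counts in WT and 3 in KO, the interaction cannot tell whether the responses of Irf8 differed.

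Gata2, Tal1 and Lmo2, whose products share a complex, were higher in both KO libraries than in either WT library and did not pass. Gata2 was at 135 and 111 CPM in WT and at 163 and 269 CPM in KO, a log2 difference of 0.84 ± 0.21 (edgeR adjusted p = 0.0706). It passed under 4 of 10 alternatives, without a filter on low counts, in DESeq2 (adjusted p = 0.0400), without WT replicate 1 (edgeR adjusted p = 0.000212) and without KO replicate 3 (0.0478). Tal1 was at 172 and 128 CPM in WT and at 186 and 262 CPM in KO (0.60 ± 0.19, edgeR adjusted p = 0.180), and it passed under 2 of 10 alternatives, without a filter (0.0159) and without WT replicate 1 (0.00238). Lmo2 was at 531 and 507 CPM in WT and at 619 and 642 CPM in KO (0.30 ± 0.12, edgeR adjusted p = 0.314). Gata1 was at 4.33 and 4.95 CPM in WT and at 9.38 and 10.9 CPM in KO (1.15 ± 0.55, edgeR adjusted p = 0.474). Runx1 differed by 0.28 ± 0.17 and Klf1 by -0.23 ± 0.41. Of the other factors, Spi1 was at 65.2 and 66.4 CPM in WT and at 43.3 and 43.7 CPM in KO (-0.57 ± 0.21, edgeR adjusted p = 0.275), Myb differed by -0.32 ± 0.13 and Cebpa by -0.41 ± 0.31. In 8 of the 10 factors the WT and KO libraries did not overlap, 5 higher in KO (Gata1, Gata2, Tal1, Lmo2 and Runx1) and 3 lower (Myb, Spi1 and Irf8), where 42.0% of all genes tested did so. With 2 libraries against 2 an exact two-sided permutation test cannot go below p = 0.333.

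For the genes downstream of the myeloid factors, the median log2 difference of KO from WT varied between states. In young fresh cells it was -1.20, with 12 of 16 tested genes negative. In old fresh cells it was 1.19, with 5 of 16 negative, and neither comparison called a gene. Of 19 of these genes tested in stimulated cells, 1 fell and 0 rose in KO. There 16 had a negative log2 difference, and the median was -0.51 against -0.00019 over all genes. The gene that fell was Ncf1, a subunit of the phagocyte oxidase, at 54.0 ± 9.08 CPM in WT and 21.6 ± 8.08 CPM in KO (SD, n = 2). Its log2 difference was -1.29 ± 0.29 (edgeR adjusted p = 0.0393). Leaving out WT replicate 2, KO replicate 3 or KO replicate 4 ended the call (log2 differences of -1.10, -1.73 and -0.97). Of 16 erythroid genes, 8 had a positive and 8 a negative log2 difference, with a median of 0.0022. Only Car2 passed, higher in KO, from 1605 and 1653 CPM to 2185 and 3113 CPM (0.73 ± 0.14, edgeR adjusted p = 0.0168). It did not pass without KO replicate 4, where its log2 difference was 0.44. None of 26 partners (5 at an unadjusted p under 0.05, as 1143 of all 10494 genes were, 0 in DESeq2 or limma voom) and none of 17 paralogues (2, 0 and 0) passed edgeR's test, with medians of -0.01 and -0.10. Macrophage markers summed to 120 to 132 CPM in WT and 68.6 to 129 CPM in KO with none of the 6 at 0, mast cell and basophil markers to 79.9 to 93.2 CPM and 41.7 to 64.3 CPM, and megakaryocyte markers to 145 to 256 CPM and 451 to 496 CPM. Their part in the results was not tested.

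The comparison of old with young fresh cells asks which factors change with age. None of the 10 passed edgeR's test, with 2 at an unadjusted p under 0.05 (Gata1 and Klf1, where 1408 of all 10680 genes were), 2 called by DESeq2 and 1 by limma voom. Klf1 stood at 1.25 and 5.14 CPM in young WT, at 0 and 1.05 CPM in young KO, at 36.9 and 12.9 CPM in old WT and at 36.6 and 33.1 CPM in old KO. All 4 old libraries lay above all 4 young ones, and Klf1 was the only factor with no overlap (background 8.43% of 10680 genes). Its log2 change was 4.44 ± 1.65 (edgeR adjusted p = 0.219). Within KO the ratio was 67.3 (exact conditional 95% interval 18.5 to 558, counting error only), and the change did not pass (edgeR adjusted p = 0.497). Over all genes 291 of 10680 (2.72%) passed, 64.6% of them higher, and with library totals alone 49.0% were higher as the median over all genes went from 0.05 to -0.07.

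Gata1 stood at 0.627 and 22.3 CPM in young WT, at 0 in both young KO libraries, at 11.7 and 13.2 CPM in old WT and at 101 and 71.6 CPM in old KO. The 2 old KO libraries lay above all other libraries. Within KO the level in old cells was at least 110-fold higher (783 counts against a floor of 3 over the group). That bound covers counting error only and not the spread between libraries, and the change within KO did not pass (edgeR adjusted p = 0.0703). Within WT the log2 change was 0.10 ± 1.56. The test over both genotypes gave an unadjusted p of 0.00207 and an edgeR adjusted p of 0.0647, and it passed in 10 of 15 alternatives (adjusted p from 0.00103 to 0.175). Of the erythroid targets tested, 1 of 16 rose with age, Car1, a carbonic anhydrase, at 1.96 ± 0.44 (edgeR adjusted p = 0.0172, and 0.0542 in DESeq2), with a list median of 0.65 against 0.05 over all genes. Car1 stood at up to 185 CPM in young and at 134 to 635 CPM in old libraries, so the ages overlap, and its change was 1.26 without old WT replicate 1 (edgeR adjusted p = 0.0106). Of the 26 partners, 1 rose, Fli1, an ETS factor of megakaryocytes and stem cells, at 0.85 ± 0.22 (edgeR adjusted p = 0.0420). Fli1 stood at 245 to 348 CPM in young and 455 to 655 CPM in old libraries, and its call was lost with library totals alone (adjusted p = 0.0964) and without any one of 5 libraries, namely young WT replicate 1, young KO replicate 3, old WT replicate 2, old KO replicate 3 and old KO replicate 4 (0.0565 to 0.144). None of 15 paralogues (3 at an unadjusted p under 0.05, 0 in DESeq2 and limma voom) or 16 myeloid genes (0, 0 and 0) passed, and their medians were -0.10 and -0.53 (-0.27 with bounds for the myeloid genes). Late neutrophil markers summed to between 4987 and 9530 CPM in young and between 366 and 3103 CPM in old libraries, without overlap, and their part in these values was not tested.

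The remaining factors showed no called change with age. Gata2 ranged from 211 to 280 CPM in young and from 238 to 341 CPM in old libraries (0.34 ± 0.26, edgeR adjusted p = 0.640), and Lmo2 from 995 to 1644 CPM and from 1082 to 1170 CPM (-0.21 ± 0.16). Tal1 differed by 0.43 ± 0.36, Runx1 by 0.25 ± 0.36 and Myb by 0.06 ± 0.25. Spi1 ranged from 2.78 to 31.5 CPM in old libraries (-1.21 ± 1.26). Cebpa was at 0 in 2 of 4 old libraries and Irf8 in 3 of 4, with all 70 old Irf8 counts in WT replicate 1.

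**Figure D3:**
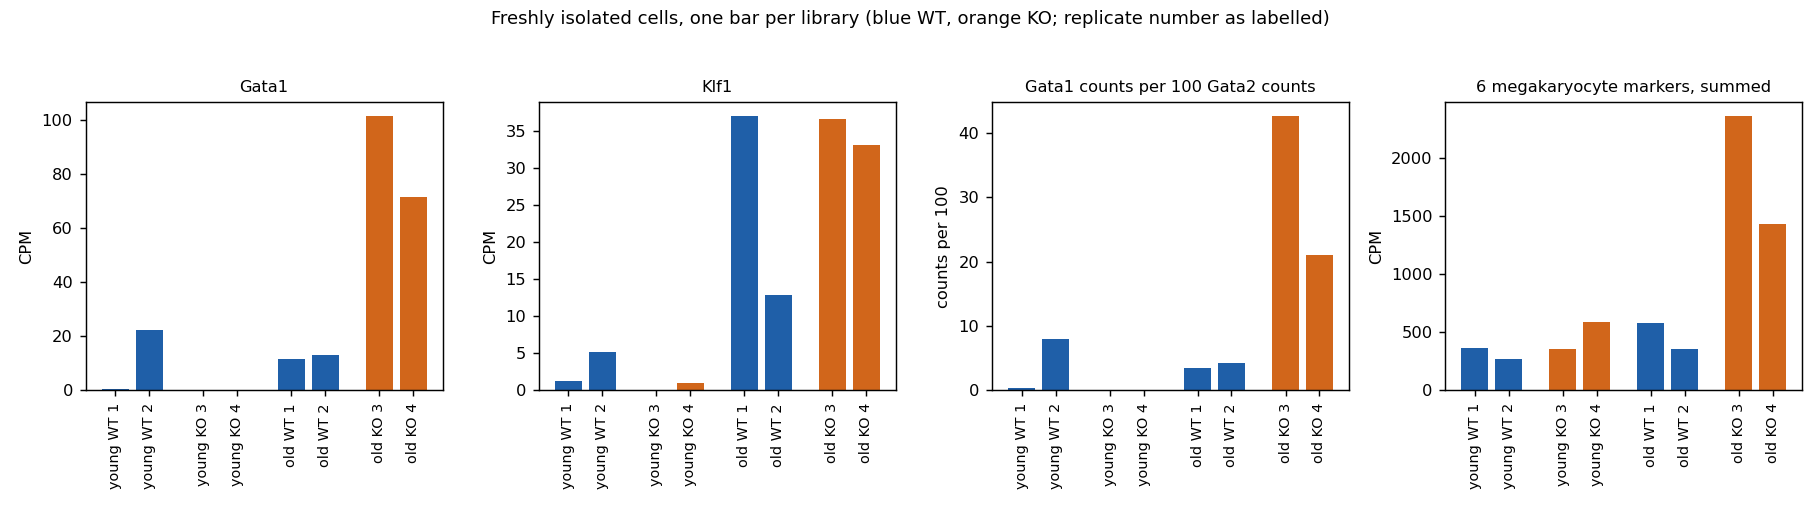
Gata1, Klf1, Gata1 counts per 100 Gata2 counts and the summed CPM of 6 megakaryocyte markers in the 8 fresh libraries, one bar per library from 0. Old KO replicates 3 and 4 stand highest for Gata1 (101 and 71.6 CPM) and for the marker sum (2365 and 1438 CPM), and Klf1 stands at 36.9 CPM in old WT replicate 1 and at 36.6 and 33.1 CPM in the old KO libraries.

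Gata1 was also compared between genotypes at each age. In old cells it averaged 86.4 ± 21.0 CPM in KO and 12.4 ± 1.07 CPM in WT (SD, n = 2). Per 100 Gata2 counts, Gata1 gave 42.6 and 21.0 in old KO, 3.50 and 4.24 in old WT, 0 and 0 in young KO and 0.298 and 7.94 in young WT. In old cells the log2 difference was 2.80 ± 1.65 (edgeR adjusted p = 1). In young cells WT was at least 15.4-fold higher, but 39 of the 40 WT counts came from replicate 2 (edgeR adjusted p = 0.839, and 0.0359 with DESeq2). The interaction of genotype and age had an unadjusted p of 0.00237 and an adjusted p of 0.845 in edgeR, and 0.0126 in DESeq2. Of the markers of megakaryocytes, which need GATA1, Pf4 and Itga2b were higher in both old KO libraries than in either old WT library. The sum of all 6 was 1438 to 2365 CPM in KO and 358 to 583 CPM in WT. Pf4 stood at 2078 and 1232 CPM in old KO against 491 and 293 CPM in old WT, Itga2b at 207 and 149 CPM against 22.6 and 64.2 CPM, and Gp6 was at 0 in all 4. Most of each sum was Pf4. Gp9 stood at 29.9 and 10.6 CPM in old KO and at 39.6 and 0.901 CPM in old WT, Gp1bb at 9.04 and 47.4 CPM and at 29.8 and 0 CPM, and Ppbp at 41.3 and 0 CPM in KO and at 0 in WT, so these 3 overlapped between the genotypes. Of 5 markers tested, 0 passed edgeR's test, and 2 (Pf4 and Itga2b) did not overlap, where 33.2% of all genes did so. Mature erythroid markers summed to 29.2 to 85.9 CPM in old KO and 81.7 to 98.6 CPM in old WT, and Alas2 was at 0 in all 4. The part of other cells in the Gata1 level was not tested.

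No factor passed edgeR's test for genotype in fresh cells, and DESeq2 called 1, Gata1, in young cells. In young cells 0 of 10680 genes passed (0%), with 519 at an unadjusted p under 0.05 and 137 called by DESeq2, and of the factors 2 had an unadjusted p under 0.05 (Gata1 and Lmo2). Lmo2 averaged 1543 ± 142 CPM in KO and 1065 ± 98.8 CPM in WT (0.53 ± 0.23, edgeR adjusted p = 0.961). Myb differed by -0.67 ± 0.35 and Klf1 by -2.53 ± 2.26, and 4 of 10 factors did not overlap, against 32.1% of all genes. In old cells 0 of 10680 genes passed (0%), with 428 at an unadjusted p under 0.05, 105 called by DESeq2 and 22 by limma voom, and 0 of the factors had an unadjusted p under 0.05 or a call in either tool. There 2 of 10 did not overlap, Gata1 higher and Spi1 lower in KO (-1.53 ± 1.79), against 33.2% of all genes. Irf8 had 0 counts in both old KO libraries, and old WT was at least 30.1-fold higher on the strength of 1 library. The interaction of genotype and stimulation called 0 genes (0%; 577 at an unadjusted p under 0.05, 32 in DESeq2), and among the factors Gata1 alone had an unadjusted p under 0.05 (0.00480, edgeR adjusted p = 0.885). The interaction of genotype and age called 0 genes (0%; 587 and 104). No gene of the 4 lists passed edgeR's test for genotype in fresh cells or for either interaction. At an unadjusted p under 0.05 there was 1 partner in young cells, 2 partners and 1 myeloid gene in old cells, 3 partners, 1 paralogue and 2 myeloid genes for stimulation, and 1 partner and 3 myeloid genes for age. DESeq2 called 1 myeloid gene in old cells and 2 for the age interaction, and limma voom called none of them. Of the other marker lists, T cell markers summed to at most 1.66 CPM in any library, B cell markers to at most 59.8 CPM and stromal and endothelial markers to at most 41.7 CPM.

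The genes most like the factors were sought over 12 libraries by Spearman's rho of CPM, for the 4 factors with the smallest p-values for stimulation. Lmo2 was closest to Nedd4 (0.965) and Rgs18 (0.951), and Irf8 to Exog (0.964) and Tmem141 (0.948). Exog and Tmem141 were low, at 0 to 7.32 and 0 to 9.65 CPM. Klf1 was closest to Slc35b1 (0.944) and Rad23b (0.937), and Gata2 to Eid2 (0.881) and Spn (0.874). The 12 libraries share 6 groups and differ in depth, so these values are a description.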

How the data were processed

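RNA purified with the RNeasy Plus Micro kit was sequenced from its 3′ ends (Lexogen QuantSeq FWD), per the labels' protocols. The authors deposited raw read counts per gene symbol, and the submitters' processing notes name HISAT2 2.2.1, HTSeq 0.9.1, DESeq2 1.34.0 and mm10. The gene annotation and the strand setting are not given in the sources used here. Here counts were fitted in R 4.3.3 with edgeR 4.0.16 (quasi-likelihood, TMM, filterByExpr at min.count 10 and min.total.count 15), and a gene was called at a Benjamini-Hochberg adjusted p under 0.05 over all genes of the fit. Stimulation and its interaction used 12 libraries, age and genotype in fresh cells the 8 fresh ones, and genotype after stimulation the 4 stimulated ones. The fresh and the stimulated sets were fitted apart because their spread differs. The fit of 12 libraries pools them, so its p-values assume a spread that both share. edgeR's common dispersion, a measure of spread, was 0.705 over 12 libraries, 1.07 over the fresh ones and 0.0330 over the stimulated ones. The factors, the 4 gene lists, the markers and these library sets were chosen with earlier results of these data known. All 10 factors passed the filter in each main fit. With each of the 8 fresh libraries left out, Irf8 has a value for age in 7 fits only. Up to 4 called list genes with the smallest adjusted p and a mean of at least 5 CPM were named. A group at 0 was bounded at 3 counts over the group, and intervals and floors cover counting error only. edgeR's test gives no standard error, so each SE is the absolute log2 change divided by the square root of the test's F value. Alternatives were RLE scaling, library totals alone, no filter, DESeq2 1.42.0, limma 3.58.1 voom with a weight per group, another library set, a replicate block and each library left out. The fits were tested on simulated data.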

Additional observations from a re-analysis of the deposited data

How the results depend on the processing

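Of the factors' log2 changes recomputed under the alternatives, 518 kept their direction and their side of the threshold, 25 gained a call, 3 lost one and 11 changed sign. For stimulation the number of factors called went from 1 to 2 without a filter, with limma voom, with the 8 young libraries alone and with the replicate block, and to 3 with DESeq2. For age it went from 0 to 1 without a filter, with voom, with all 12 libraries and with the replicate block, to 2 with DESeq2, and to between 0 and 1 with each library left out. For KO against WT it became 1 with DESeq2 in young fresh cells, and after stimulation 3 without a filter, 2 with DESeq2, 0 with all 12 libraries and 0 to 3 with each library left out. The genotype by age interaction became 1 with DESeq2. For age, Myb turned to -0.064 with library totals alone. With each library left out, the sign turned for Runx1 on stimulation (-0.35 to 0.063), for Irf8 (-1.83 to 1.75), Myb (-0.11 to 0.30), Spi1 (-1.92 to 1.44) and Runx1 (-0.021 to 0.49) with age, and for Klf1 (-0.77 to 0.15) and Cebpa (-1.05 to 0.012) between stimulated genotypes; none of these values passed, and the cause was not tested.

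Over all genes, the calls for stimulation were 521 without a filter, 786 with DESeq2, 712 with voom and 160 to 423 with each library left out. For age they were 450, 917 and 338, 577 with all 12 libraries, 438 with the replicate block and 287 to 551. For stimulated KO against WT they were 340 without a filter, 85 with voom, 0 with all 12 libraries and 24 to 296. In fresh cells the genotype called 10 without a filter, 3 with 12 libraries and 3 to 65 in young, and 18, 5 and 7 to 41 in old. The interactions called 10 without a filter and 0 to 7 for stimulation, and 14, 4 with 12 libraries, 7 with the replicate block and 4 to 57 for age. Libraries with the same number did not deviate together (r from -0.00703 to 0.0119), and the labels do not say that a number marks a shared animal or day, so the block stands as an alternative.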
